A study of Mus musculus with 6 samples.

Results

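The genes described here are 10 purinergic and adenosine signalling genes (Entpd1, Nt5e, Ada, Adk, Adora2a, Adora2b, P2rx4, P2rx7, P2ry2 and P2ry6), chosen by name from the 23337 genes of the deposited count table. All 10 were found and all 10 passed the filter on low counts, which left 14222 genes. The libraries hold RNA of primary liver sinusoidal endothelial cells from mice, isolated with immunomagnetic beads, plated on collagen IV and serum starved. The control group was left unstretched (3 libraries, replicates 2, 3 and 4), and the stretch group received 4% cyclic stretch at 1 Hz from a Flexcell device (3 libraries, replicates 1, 2 and 4). No source used here gives the strain, genotype, sex or age of the mice or how long the stretch lasted. No label says whether libraries came from separate animals or cultures, so the p-values measure the spread between these libraries, which may be technical. Total gene counts were 48948948 to 57923937 in control and 58503669 to 68489956 in stretch libraries. Values of single libraries are listed throughout as controls 2, 3 and 4, then stretch libraries 1, 2 and 4.

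Cells release ATP when they are deformed or injured, and endothelial cells read that ATP, its breakdown products and the related uridine nucleotides through surface receptors. P2X receptors are cation channels opened by ATP, and P2Y receptors are G protein-coupled receptors. The ectonucleotidase CD39 (Entpd1) converts ATP and ADP to AMP, and CD73 (Nt5e) converts AMP to adenosine. Adenosine acts on receptors such as those of Adora2a and Adora2b, which raise cAMP, and is removed by deamination to inosine (Ada) or phosphorylation to AMP (Adk).

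Of the 10 genes, 1 rose with stretch, 2 fell and 7 did not pass at an adjusted p of 0.05 (edgeR quasi-likelihood test, Benjamini-Hochberg over all genes tested). P2ry2, a receptor for ATP and UTP, rose 2.12-fold, from 14.5 ± 1.71 to 30.7 ± 3.07 CPM (read counts relative to library size after TMM scaling; means are over 3 libraries with their SD throughout). Entpd1 fell 1.34-fold, from 19.1 ± 2.43 to 14.3 ± 1.36 CPM. P2rx4, the most abundant of the 10 per length, fell 1.13-fold, from 73.4 ± 0.59 to 64.8 ± 5.18 CPM. Among all genes tested 21.4% were called higher and 22.6% lower, 44.0% in either direction, and 3 called members of 10 lie below that share. The same 3 genes had CPM ranges that did not overlap between the groups, as did 55.9% of all genes tested (26.7% higher and 29.2% lower). Among alternatives that moved a count of members, the matching shares of all genes were 21.2% lower with RLE size factors, 20.2% lower with DESeq2, 9.33% lower against a minimum change of 1.2-fold (glmTreat) and 19.1% higher with the replicate block. With 1 library left out, which gave 1 to 2 members higher and 0 to 2 lower, they were 16.2% to 20.9% higher and 16.6% to 19.8% lower. The median log2 fold change was 0.07 over the 10 genes and -0.01 over all genes tested.

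The promoters of the 3 called genes are shown, as the sequence before an annotated start of each gene whose count changed. Each is the run of 250 bases before the RefSeq start nearest the deposited gene's 5′ end, on GRCm38.p6, read 5′ to 3′ on the gene's strand, and capitals mark matches to any of 5 motifs. P2ry2 is on the minus strand (chr7:101011999-101012248), Entpd1 on the plus strand (chr19:40659520-40659769) and P2rx4 on the plus strand (chr5:122707294-122707543). P2ry2 and Entpd1 each have 2 starts in the table, and the one nearer the deposited gene end is shown, whose share in the counts is not known.
P2ry2: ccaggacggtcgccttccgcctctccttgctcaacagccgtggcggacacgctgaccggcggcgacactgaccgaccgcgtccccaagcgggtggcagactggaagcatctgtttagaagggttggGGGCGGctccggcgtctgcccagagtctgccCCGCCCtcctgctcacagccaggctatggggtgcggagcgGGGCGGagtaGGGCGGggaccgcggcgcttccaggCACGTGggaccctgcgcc
Entpd1: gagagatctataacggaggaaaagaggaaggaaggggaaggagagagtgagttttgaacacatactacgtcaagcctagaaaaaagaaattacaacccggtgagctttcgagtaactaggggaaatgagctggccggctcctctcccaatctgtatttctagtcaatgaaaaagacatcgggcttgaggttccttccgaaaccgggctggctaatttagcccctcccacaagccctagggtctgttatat
P2rx4: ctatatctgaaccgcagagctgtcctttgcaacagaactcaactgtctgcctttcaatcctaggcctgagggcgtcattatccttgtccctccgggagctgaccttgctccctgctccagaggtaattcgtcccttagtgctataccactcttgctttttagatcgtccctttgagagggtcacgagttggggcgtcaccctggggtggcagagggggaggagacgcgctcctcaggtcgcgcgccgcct
The P2ry2 window held 4 GC boxes (GGGCGG, the Sp1 type, on either strand) and the hypoxia response core ACGTG on both strands, its 2 matches overlapping in the palindrome CACGTG. Neither the Entpd1 nor the P2rx4 window matched any of the 5 motifs. GC boxes were also in the windows of all 5 members that were not called and had an entry (Nt5e 4, Adora2b 6, Adk 2, P2rx7 2 and Ada 1), so they do not mark the gene that rose. Over the 32851 promoter windows of that length in the table, 32.7% held a GC box, 16.6% the hypoxia core, 6.75% the AP-1 site TGANTCA, 1.55% the cAMP response element TGACGTCA and 3.90% the NF-kB site. The P2ry2 window was 71.2% G or C, against 47.2% for Entpd1, 57.2% for P2rx4 and a median of 52.4% over the table. The motifs were picked after the fold changes were known, and a match describes letters, not binding. Promoters were in the table for 8 of the 10 genes, Adora2a and P2ry6 being without an entry.

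Levels of different genes were compared per kilobase of coding length, with the authors' deposited RPKM (reads relative to library size and gene length). P2rx4 led in control cells with 35.1 ± 0.43 RPKM, followed by P2rx7 with 13.5 ± 2.80, Ada with 9.26 ± 1.11 and Adk with 6.96 ± 0.50 RPKM (mean ± SD, n = 3). Adora2a (5.70 ± 1.79 RPKM), P2ry2 (4.60 ± 0.59 RPKM) and Entpd1 (4.33 ± 0.51 RPKM) came next. The library ranges of Adk and Adora2a overlapped, as did those of Adora2a and P2ry2 and of P2ry2 and Entpd1, so neighbours in this middle group were not separated, although Adk lay above P2ry2 and Entpd1 in every control library. Nt5e stood at 0.40 ± 0.13 RPKM, 10.7-fold below Entpd1, and the ranges of these 2 enzymes were apart. Adora2b (0.15 ± 0.07 RPKM) and P2ry6 (0.13 ± 0.11 RPKM) were the scarcest, with overlapping ranges. In stretched cells P2ry2 moved from the sixth to the fourth place at 9.16 ± 0.76 RPKM, and its range then overlapped that of Ada (9.34 ± 0.42 RPKM) and lay above that of Adk (6.40 ± 0.64 RPKM).

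**Figure D1:**
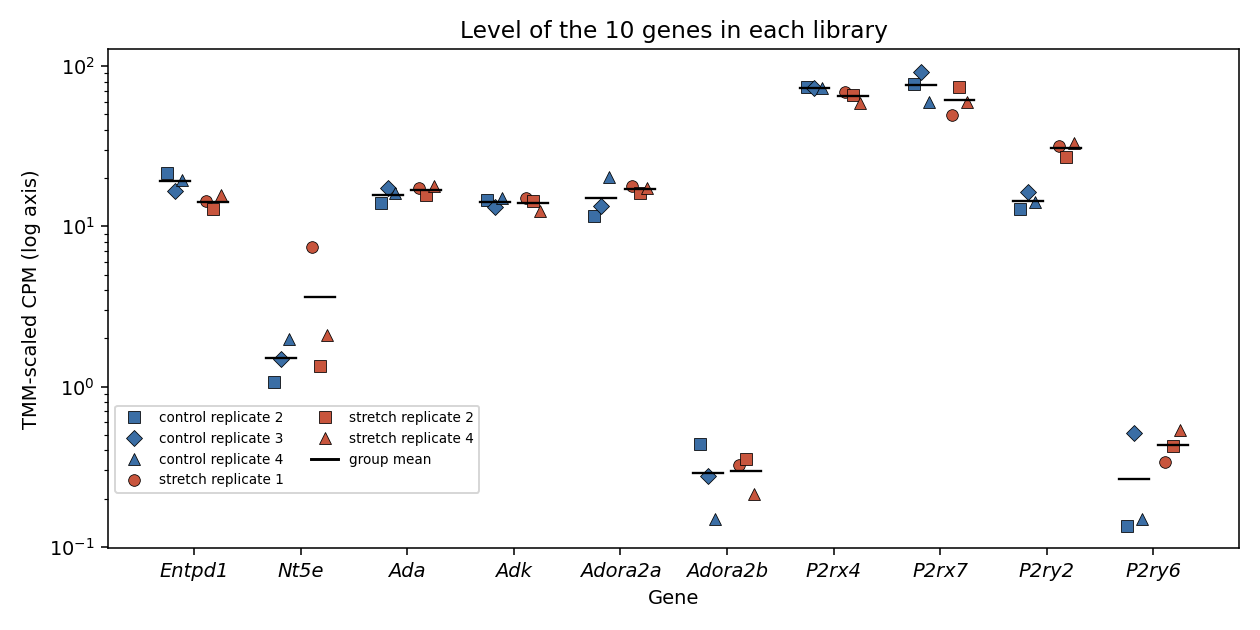
TMM-scaled CPM of each gene (log axis) in each of the 6 libraries, controls in blue and stretch in red, with the symbol giving the replicate number and the bar the group mean. The 3 stretch libraries lie above all controls for P2ry2 (27.1 to 32.9 against 12.9 to 16.3 CPM), and 1 stretch library stands alone for Nt5e.

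Among the nucleotide receptors, the clearest difference was in P2ry2 (chromosome 7, 100996572 to 101011991), which signals through Gq proteins to calcium release. Its level was 12.9, 16.3 and 14.2 CPM without stretch, and 31.9, 27.1 and 32.9 CPM with it. All stretch libraries were above all control libraries, and no group had a stray library. The log2 fold change was 1.08 ± 0.10 (SE; edgeR adjusted p = 0.000134; 95% interval 0.85 to 1.32, for this gene alone). It stayed past the threshold in all 17 alternatives, with log2 fold changes between 0.99 and 1.18 and adjusted p up to 0.0013, and was 1.06 without stretch replicate 1. The authors' deposited table gives a log2 fold change of 1.08 with an FDR of 2.5e-18.

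P2ry6, the receptor for UDP, lies next to P2ry2 on the same strand, 32205 bases away with no listed gene between them (chromosome 7, 100937634 to 100964366). It was scarce, with counts of 8, 26 and 8 in the controls and 19, 29 and 30 in the stretch libraries. The groups overlapped through control replicate 3. An annotated gene on the opposite strand, Gm44545, overlaps P2ry6, and without a stated strand setting their reads cannot be told apart. Its log2 fold change was 0.72 ± 0.55 (edgeR adjusted p = 0.326), with an interval from -0.53 to 1.97 that holds both no change and a change as large as that of P2ry2. Without control replicate 3 it was 1.59 (edgeR adjusted p = 0.0353). Beyond P2ry2 in the other direction, the next listed gene, Fchsd2, fell from 78.7 ± 2.15 to 66.6 ± 3.86 CPM (a log2 difference of -0.24 ± 0.05, edgeR adjusted p = 0.0071). Of the 2 genes listed on either side of P2ry2, Fchsd2 thus fell and P2ry6 did not pass.

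The P2X channels P2rx7 and P2rx4 also lie in tandem on chromosome 5, 16124 bases apart and with no listed gene between (122643911 to 122691432 and 122707557 to 122729042). P2rx4, a channel known to carry calcium entry into endothelium under flow, was at 73.9, 72.8 and 73.3 CPM without stretch and at 69.0, 66.3 and 59.0 CPM with it. The groups did not overlap, and the controls were almost level with each other. The log2 fold change was small, -0.18 ± 0.06 (edgeR adjusted p = 0.0418). The call was lost when any library but stretch replicate 1 was left out (adjusted p between 0.0698 and 0.113), with RLE size factors (adjusted p = 0.0564), with DESeq2 (adjusted p = 0.0552) and against a minimum change of 1.2-fold (glmTreat). Without stretch replicate 4, the lowest library, the log2 fold change of P2rx4 was -0.12. In the authors' deposited table the FDR of P2rx4 is 0.0587.

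P2rx7, the channel that needs high ATP and drives inflammasome activation, varied widely between libraries of a group, and the groups overlapped. It was at 77.7, 91.5 and 59.4 CPM without stretch and at 49.8, 74.2 and 59.7 CPM with it. Its log2 fold change of -0.31 ± 0.17 did not pass (edgeR adjusted p = 0.178; interval -0.71 to 0.08). Left-out libraries moved it: P2rx7 was at -0.16 without control replicate 3, its highest library, -0.18 without stretch replicate 1, its lowest, and -0.47 and -0.46 without control replicate 4 and stretch replicate 2. Camkk2, the next listed gene on the P2rx4 side and a calcium-dependent kinase, rose from 40.01 ± 2.34 to 47.6 ± 3.55 CPM (edgeR adjusted p = 0.0173), opposite in direction to P2rx4.

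**Figure D2:**
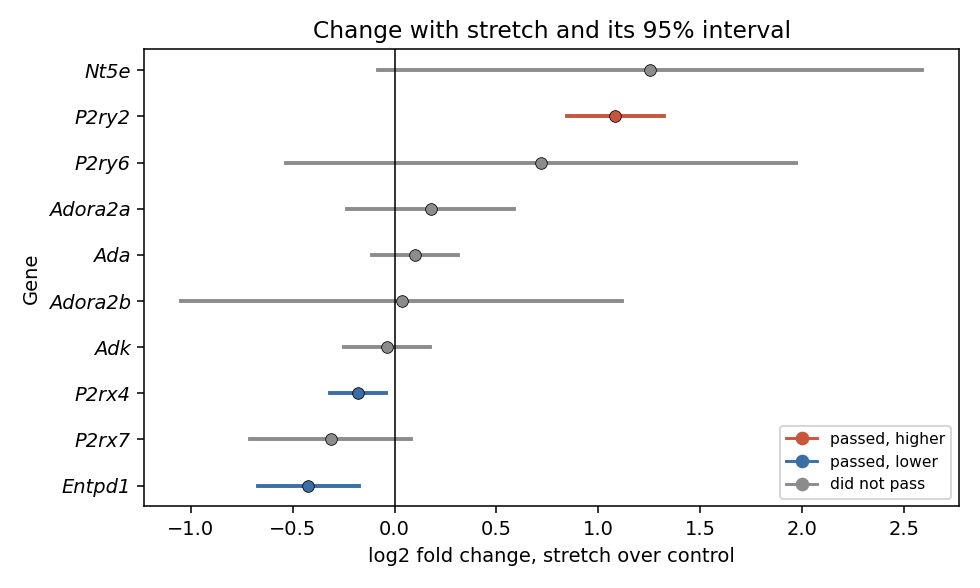
Log2 fold change of stretch over control for the 10 genes (points) with the 95% interval of each gene alone (lines), coloured by whether the gene passed. P2ry2 is the only gene called higher, Entpd1 and P2rx4 are called lower, and the widest intervals belong to Nt5e, P2ry6 and Adora2b.

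Of the surface enzymes that turn ATP into adenosine, Entpd1 fell and Nt5e did not pass. Entpd1 (chromosome 19, 40659794 to 40741602) was at 21.4, 16.5 and 19.4 CPM without stretch and at 14.4, 12.8 and 15.6 CPM with it. The highest stretch library lay just under the lowest control library. The log2 fold change was -0.42 ± 0.11 (edgeR adjusted p = 0.0135; interval -0.67 to -0.17), and the authors' deposited table gives an FDR of 0.00583. Without control replicate 2, the library with most Entpd1, the call was lost (log2 fold change -0.33, edgeR adjusted p = 0.0554), and against a minimum change of 1.2-fold it did not pass either (glmTreat adjusted p = 0.123).

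Nt5e (chromosome 9, 88327609 to 88372089) was low in 5 libraries and high in 1. The controls had counts of 63, 75 and 106, and the stretch libraries 412, 91 and 118. In CPM, stretch replicate 1 stood at 7.39, while stretch replicate 2 at 1.34 lay within the control range of 1.07 to 1.98 and stretch replicate 4 at 2.099 just above it. The log2 fold change was 1.25 ± 0.58 and did not pass (edgeR adjusted p = 0.116; interval -0.08 to 2.59). Without stretch replicate 1 it was 0.19 (edgeR adjusted p = 0.680), and without stretch replicate 2 it was 1.66 and passed (edgeR adjusted p = 0.0296).

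Stretch replicate 1 also stood apart in hepatocyte transcripts. The summed level of 10 hepatocyte markers, among them Alb and Apoa1, was 509.8 CPM there, against 111 and 106 CPM in stretch replicates 2 and 4 and 44.7 to 83.8 CPM in controls, and 8 of the 10 were called higher. Of 12 macrophage markers 10 were tested and 9 called higher. The 12 summed to 79.4 to 94.4 CPM in control and 113 to 158 CPM in stretch libraries. Most of that sum was Cd68, at 63.0 to 71.6 CPM in control and 67.7 to 92.1 CPM in stretch libraries. Cd68 was the tested marker that was not called (edgeR adjusted p = 0.0549). Among the Kupffer cell genes of the list, Cd5l, Marco and Vsig4 rose 4.6-fold, 9.54-fold and 6.54-fold. Each was highest in stretch replicate 1 (8.79, 4.38 and 1.51 CPM). Clec4f and Timd4 were at most at 0.395 and 0.0538 CPM in any library and not tested. The 9 stellate cell and fibroblast markers summed to 83.7 to 94.6 CPM in control and 66.4 to 110 CPM in stretch libraries, with 0 of 8 tested called, and the stellate cell marker Lrat was at 0 in 4 libraries. Lymphocyte (at most 1.78 CPM), neutrophil (at most 0.29 CPM) and platelet (at most 5.18 CPM) markers were scarce, and 5 cholangiocyte markers summed to 74.9 to 96.9 CPM in control and 94.1 to 122 CPM in stretch libraries, with Epcam (1.68-fold) and Sox9 (1.75-fold) called higher and Cftr lower. Sinusoidal markers summed to 7964 to 9066 CPM in control and 5814 to 6755 CPM in stretch libraries, 8 of 10 lower, and 8 general endothelial markers to 6868 to 7907 CPM over all libraries, 5 of them called lower, and markers of the labelled cell type were thus abundant in every library. The sums of the sinusoidal, macrophage, hepatocyte and lymphocyte lists did not overlap between the groups (exact two-sided permutation p = 0.1, adjusted p = 0.225 over 9 lists). That is the smallest p that 3 against 3 can give, so a sum could not pass in this design. The part of other cells in the values of Nt5e, P2ry2, P2ry6 and P2rx7 was not tested. In bulk RNA, fewer cells of a type and less RNA per cell cannot be told apart.

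**Figure D3:**
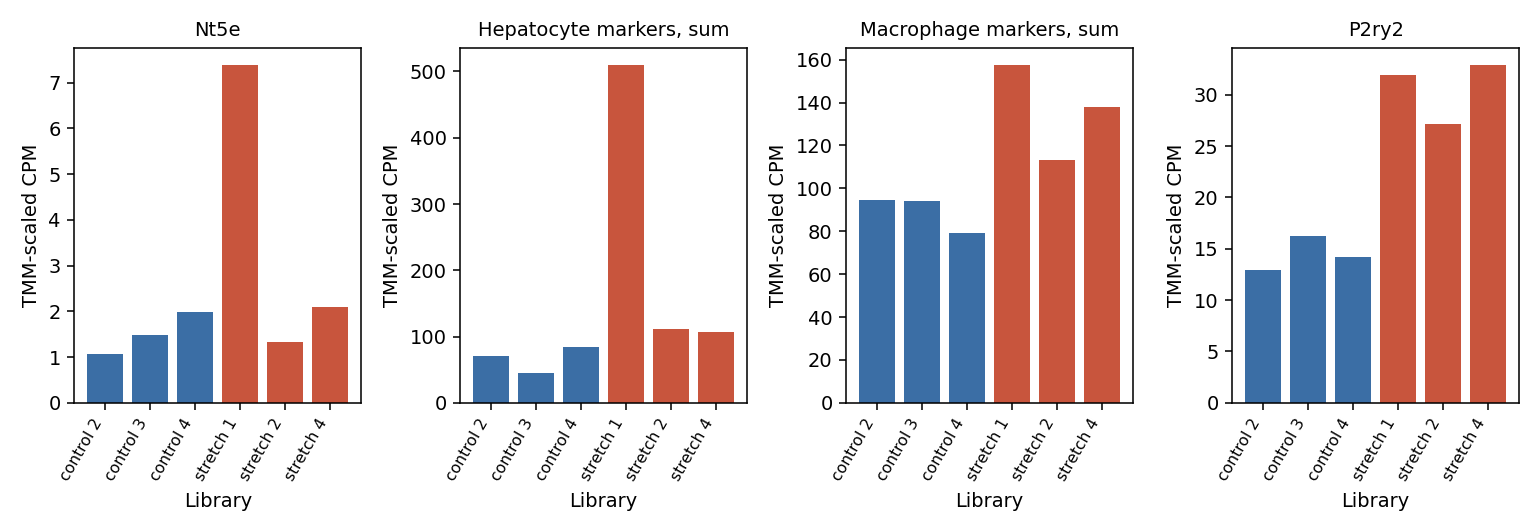
Bars give TMM-scaled CPM in each of the 6 libraries (controls blue, stretch red) for Nt5e, the summed hepatocyte markers, the summed macrophage markers and P2ry2. Nt5e and the hepatocyte sum are both highest in stretch replicate 1 (7.39 and 509.8 CPM), whereas P2ry2 is high in all 3 stretch libraries. Most of the macrophage sum is Cd68, which was not called.

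Neither enzyme that removes adenosine passed. Ada (chromosome 2, 163726584 to 163750177) was at 13.9, 17.3 and 16.1 CPM without stretch and at 17.3, 15.7 and 17.7 CPM with it, a log2 difference of 0.10 ± 0.09 (edgeR adjusted p = 0.405). Adk (chromosome 14, 21052574 to 21448569) was at 14.7, 13.1 and 15.0 CPM in control and 15.0, 14.3 and 12.4 CPM in stretch libraries, a log2 difference of -0.04 ± 0.09 (edgeR adjusted p = 0.783). Both pairs of groups overlapped. The 95% intervals put any change between 0.93-fold and 1.24-fold for Ada and between 0.84-fold and 1.13-fold for Adk, and a change as large as that of P2ry2 lies outside both.

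Neither adenosine receptor passed, and their levels were far apart, at 5.70 RPKM for Adora2a and 0.15 RPKM for Adora2b in control cells. Adora2a (chromosome 10, 75316943 to 75334788), the higher-affinity receptor of the pair, was at 11.7, 13.4 and 20.2 CPM without stretch and at 17.9, 16.0 and 17.4 CPM with it. Control replicate 4 was the highest of all 6 libraries, and the groups overlapped through it. The log2 fold change was 0.18 ± 0.18 (edgeR adjusted p = 0.457), but without control replicate 4 it was 0.45 and passed (edgeR adjusted p = 0.0104). Adora2b (chromosome 11, 62248984 to 62266452), the lower-affinity one, had counts of 26, 14 and 8 in the controls and 18, 24 and 12 in the stretch libraries. All 6 of these counts were even, as were 67.2% to 69.9% of the low counts (1 to 10) of each library, against 49.6% to 50.9% of counts from 1000 up. No source used here says whether fragments or their separate ends were counted, so the counts of scarce genes such as Adora2b, P2ry6 and Nt5e may exceed the number of independent fragments. The log2 fold change of Adora2b was 0.03 ± 0.47 (edgeR adjusted p = 0.961), and its interval ran from 0.48-fold to 2.16-fold.

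The other genes of the pathway were taken from 7 lists of 87 genes, of which 70 were tested. Of these 12 rose, 16 fell and 42 did not pass (17 genes were too scarce to test), with a median log2 fold change of -0.03. These are 17.1% and 22.9% of the tested genes, against 21.4% and 22.6% over all genes. The latter shares also apply beside the counts of each list below. Without stretch replicate 1, 10 rose and 18 fell, where 18.1% and 19.0% of all genes did. Without control replicate 4, 8 rose and 16 fell, where 17.3% and 18.3% of all genes did. With library sizes alone as scaling 8 rose and 23 fell, where 14.7% and 30.2% of all genes did.

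Of 12 other nucleotide receptors 6 were tested, 1 rose and 0 fell (median log2 fold change 0.12). The gene that rose, P2ry1, encodes an ADP receptor that, like P2Y2, couples to Gq. It was at 16.6, 19.0 and 18.7 CPM without stretch and at 33.3, 31.3 and 27.0 CPM with it, with no overlap. Its log2 fold change was 0.75 ± 0.09 (edgeR adjusted p = 0.000356), or 0.69 without stretch replicate 1. Per length its control level, 4.45 RPKM, was close to that of P2ry2. Gpr17 did not pass (log2 fold change -0.24 ± 0.23). The other adenosine receptors were scarce: Adora1, which lowers cAMP through Gi, was at 1.19 ± 0.59 and 1.64 ± 0.37 CPM (edgeR adjusted p = 0.332), and Adora3 was not tested.

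The list of other ectonucleotidases and related genes had 11 tested genes, of which 0 rose and 1 fell. Without stretch replicate 1, 3 fell. The median log2 fold change was -0.12 with all libraries. The gene that fell with all libraries, Dpp4, is not a nucleotide enzyme but a surface protease known to bind adenosine deaminase in human cells. It went from 65.6 ± 9.95 to 46.8 ± 3.46 CPM (edgeR adjusted p = 0.00599). Entpd5, a nucleoside diphosphatase of the endoplasmic reticulum, was at 50.01 ± 1.76 and 42.4 ± 6.35 CPM and did not pass (edgeR adjusted p = 0.0740). It passed without stretch replicate 1 (edgeR adjusted p = 0.00257). Among 7 nucleoside transporters and ATP release genes, 0 rose and 1 fell (median 0.054): the lysosomal nucleoside transporter Slc29a3 was at 25.8 ± 0.81 and 20.3 ± 0.91 CPM (edgeR adjusted p = 0.00207). Slc28a3, a concentrating nucleoside transporter, was scarce at 0.25 ± 0.13 and 0.58 ± 0.25 CPM and did not pass (edgeR adjusted p = 0.0728).

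Of 15 adenosine and purine salvage enzymes tested, 6 rose and 3 fell (median log2 fold change 0.12). These are 40% and 20%, against 21.4% and 22.6% of all genes, a difference that was not tested. The counts were 5 and 3 without stretch replicate 1, 3 and 3 without control replicate 4, and 3 and 4 with library sizes alone as scaling. Ampd2, which deaminates AMP to IMP, rose 1.41-fold from 39.7 ± 0.90 CPM, and Hprt, which salvages hypoxanthine and guanine, rose 1.23-fold from 86.5 ± 2.56 CPM. Adal, an adenosine deaminase-like enzyme, fell 1.36-fold from 8.66 ± 0.41 CPM, and Xdh, which makes uric acid, fell 1.31-fold from 186.9 ± 19.7 CPM. All 4 passed in edgeR (adjusted p = 0.000385, 0.00344, 0.00615 and 0.00693).

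Of 23 G protein and effector genes tested, 4 rose and 9 fell (median log2 fold change -0.099). These are 17.4% and 39.1%, against 21.4% and 22.6% of all genes, a difference that was not tested. Without stretch replicate 1, 3 rose and 9 fell, where 18.1% and 19.0% of all genes did. The alpha subunits Gna13, Gnai3 and Gnai1 rose 1.36-fold, 1.4-fold and 1.31-fold, and the adenylyl cyclase Adcy4 rose 1.16-fold from 77.7 ± 8.50 to 90.1 ± 2.22 CPM (edgeR adjusted p = 0.0450). The genes that fell were the alpha subunits Gnaq, Gna11 and Gna12, the adenylyl cyclases Adcy6 and Adcy9, phospholipase C beta (Plcb3) and the protein kinase A genes Prkaca, Prkacb and Prkar2b. Adcy6, which makes cAMP, fell 1.34-fold from 102.04 ± 2.30 to 76.2 ± 4.46 CPM, and Prkaca, the kinase that cAMP activates, 1.23-fold from 81.2 ± 1.07 to 66.2 ± 1.03 CPM. Of 7 inflammasome genes tested, 1 rose and 2 fell (median log2 fold change -0.43). Nlrp3, the sensor activated downstream of P2X7, rose 4.66-fold, from 1.71, 2.19 and 1.196 CPM without stretch to 11.6, 5.05 and 7.18 CPM with it (edgeR adjusted p = 0.000972). Like Cd5l, Marco and Vsig4 above, Nlrp3 was highest in stretch replicate 1. The macrophage marker Csf1r, also called higher, was highest in stretch replicate 2 (4.46 CPM, against 3.28 CPM in stretch replicate 1). Without stretch replicate 1 the log2 fold change of Nlrp3 was 1.85, against 2.22 with it. What macrophage RNA adds to Nlrp3 was not tested. Casp1, the protease of the same complex, fell 1.62-fold from 33.0 ± 1.22 to 20.4 ± 1.40 CPM, and Txnip fell 1.45-fold, while Il1b was too scarce to test.

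**Figure D4:**
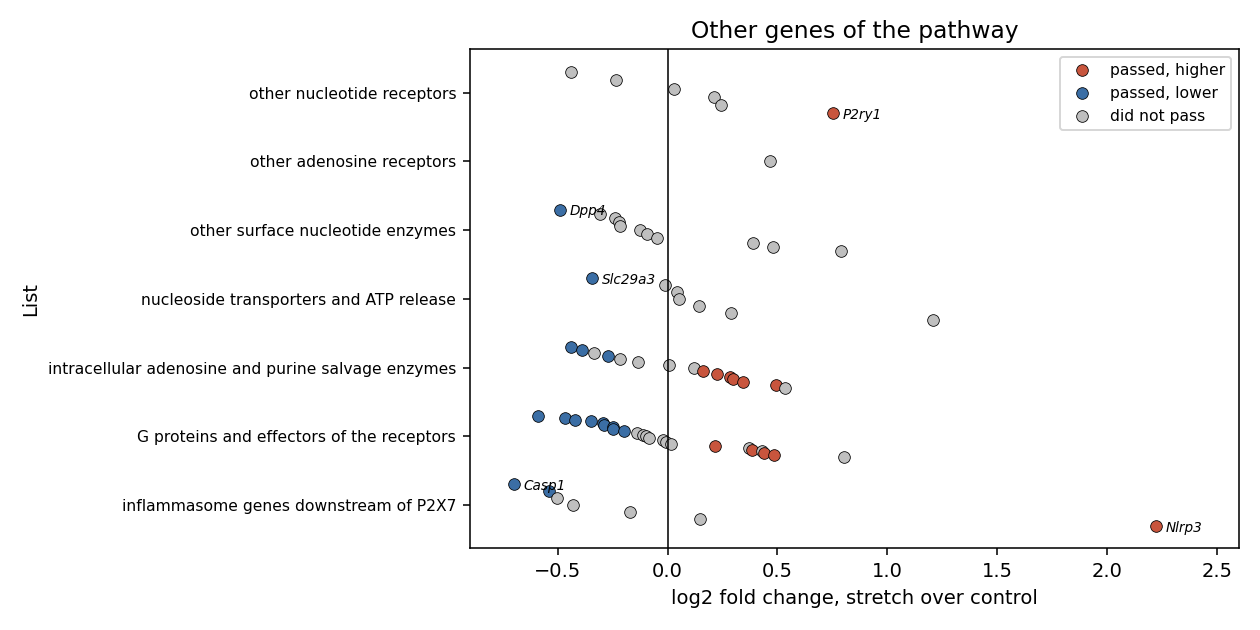
Log2 fold change of stretch over control for the 70 tested genes of the 7 other pathway lists, 1 point a gene, coloured by whether the gene passed in edgeR. P2ry1 is the single other nucleotide receptor that passed, G protein and effector genes lie on both sides with 9 lower and 4 higher, and Nlrp3 lies farthest to the right.

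By Pearson's r of log2 CPM over the 6 libraries, the genes most like P2ry2 were Kti12 and Nt5dc3 (r = 0.9996 and 0.9994), and those most like Entpd1 were Nfkbil1 and Rnf7 (r = 0.997 and 0.993). These are descriptions without a test, since the 6 points are 3 control and 3 stretch libraries. For P2ry2 r mostly follows the difference between the groups, and for Entpd1 r also follows the spread within them. An r above 0.95 with P2ry2 was shared by 1409 of 11197 genes compared, and with Entpd1 by 59.

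**Figure D5:**
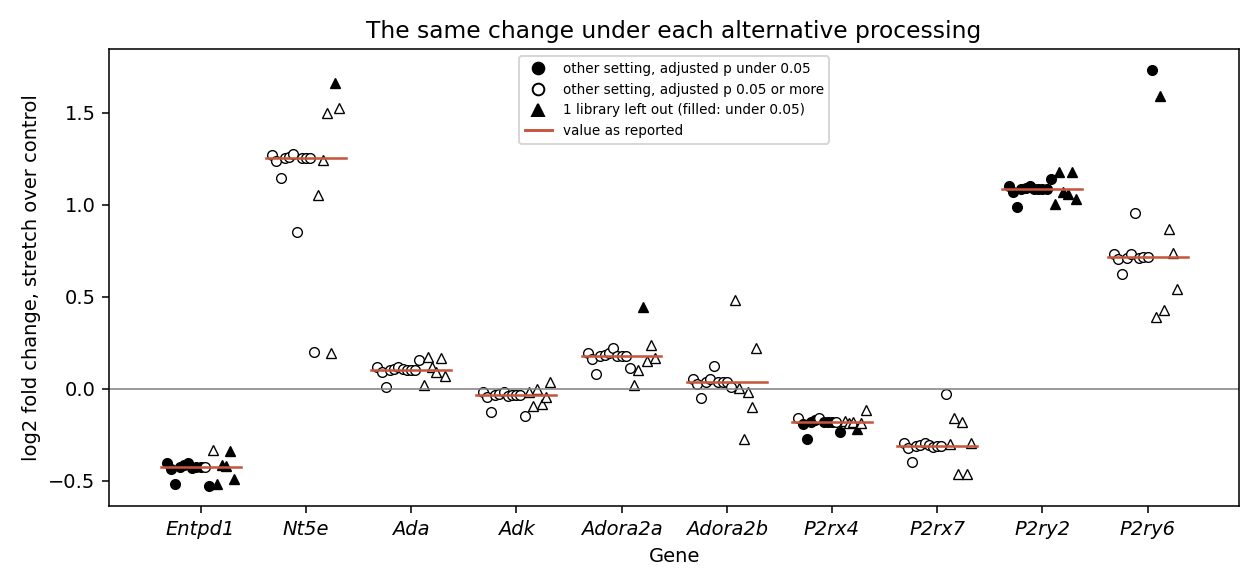
Log2 fold change of each gene as reported (red line) and under each alternative processing (circles, and triangles where 1 library was left out), filled where the adjusted p was under 0.05. P2ry2 is filled throughout, the points of P2rx4 are partly open and lie between -0.27 and -0.12, and Nt5e and P2ry6 spread most.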

How the data were processed

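RNA-seq of 3 control and 3 stretch libraries was analysed from gene tables. The authors deposited raw counts for each gene. TopHat2 2.1.0, featureCounts, edgeR and the build GRCm38 (mm10) stand in the submitters' processing notes, with no role or order. No source used here states the annotation, strand setting or filters. The deposited RPKM values are per kilobase of the deposited coding length. Per the file headers, the authors' deposited comparison gives for each gene a log2 fold change, a likelihood ratio score, a p-value and an FDR.

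Counts were tested with edgeR 4.0.16 (R 4.3.3; TMM, filterByExpr, quasi-likelihood F test), with Benjamini-Hochberg adjustment over 14222 genes and a threshold of 0.05. The SE was the estimate over the square root of F. The common biological coefficient of variation was 0.12. The steps were also run on simulated counts in which few genes changed. In these data 44.0% of genes tested were called, so the simulation does not test the scaling.

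The members, lists and tests were chosen with earlier results of these data known. All 10 members are named, with up to 4 called genes of smallest p per pathway list, or 2 where fewer than 2 were called; neighbours were named by position, and Gpr17, Adora3, Il1b and further called G protein genes as list members. For each called member the 2 most correlated genes with at least 1 log2 CPM were found, and named for the largest rise and fall. Overlaps of genes were read from GENCODE, promoters from RefSeq tables. Alternatives were other scalings, filters and tests (DESeq2 1.42.0, limma-voom 3.58.1, the edgeR exact test, robust dispersion, glmTreat), the replicate block and each library left out.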

Additional observations from a re-analysis of the deposited data

How the results depend on the processing

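P2ry2 passed as higher in all 17 alternatives run. Entpd1 kept its direction in all 17 and its call in 15, and P2rx4 kept its direction in all 17 and its call in 9. Over all genes, 1210 (8.51%) were called higher and 1327 (9.33%) lower against a minimum change of 1.2-fold (glmTreat), compared with 3040 and 3221. Of the 70 other pathway genes tested, 5 were then called higher and 4 lower. With library sizes alone as scaling the median of all genes moved by -0.09, and 32.7% of called genes were higher, against 48.6%. Called members numbered 2 higher under the replicate block (P2ry2 and P2ry6) and 1 to 2 higher with a library left out. Called members lower were 1 with RLE factors, 1 with DESeq2, 0 with glmTreat and 0 to 2 with a library left out. Adk changed sign within its range with a library left out, -0.091 to 0.039, and so did Adora2b, -0.27 to 0.48, which was -0.051 with library sizes alone. The cause was not tested. The count of pathway genes under these settings was added after the data were seen.

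Both groups have a replicate 2 and a replicate 4, which no label says come from a shared isolation. Deviations from the group means correlated at 0.212 (number 2) and 0.114 (number 4) across genes. With the replicate block 2713 genes were called higher and 2855 lower, P2ry6 passed (log2 fold change 1.73, edgeR adjusted p = 0.0345), Nt5e was at 0.20 and P2rx7 at -0.029, and no other member's call changed. Of the 70 other pathway genes tested, 12 were then called higher and 19 lower, where 19.1% and 20.1% of all genes tested were. Adora1 was among those higher (edgeR adjusted p = 0.0376) and Entpd5 among those lower. Neither passed with TMM scaling, all libraries and no block. Only the 2 shared numbers inform that fit. Adora2b and P2ry6 had at most 30 counts in a library, and a filter of 1 CPM in 3 libraries removed both; depth was not tested apart from the spread between libraries. The order of levels held for 10 of 10 genes with TMM-scaled CPM per kilobase and for 8 to 10 with a control library left out.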

Other observations

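The ratio of P2ry2, a receptor for ATP, to Entpd1, the enzyme that removes ATP, was computed from the deposited RPKM values after both changes had been seen, and is given as a description with no test. It was 0.85, 1.38 and 1.03 in the controls and 3.11, 2.96 and 2.96 in the stretch libraries. The ratio of Entpd1 to Nt5e was 17.07, 9.51 and 8.35 in the controls and 1.66, 8.17 and 6.33 in the stretch libraries, and the low value of stretch replicate 1 is that of the library with most Nt5e. The ratio of Ada to Adk lay between 1.14 and 1.71 over all 6 libraries, and the groups overlapped.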
